A study of Mus musculus with 2 samples.

Results

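NANOG peaks were examined at 10 genes that encode WNT receptors, their regulators at the cell surface and a secreted antagonist: Fzd1, Fzd2, Fzd5, Fzd7, Lrp6, Lgr4, Lgr5, Rnf43, Znrf3 and Dkk1. They were chosen by name, out of 21482 protein-coding genes with a known strand. For each gene, every summit of the authors' optimal peak set that lay in the gene body or within 50 kb of the transcription start site (TSS) was taken, which gave 23 of the 15891 summits of the set. NANOG, a homeodomain transcription factor of pluripotent cells, had been mapped by chromatin immunoprecipitation and sequencing (ChIP-seq) in mouse embryonic stem cells of the male line E14TG2a.4, strain 129/Ola, labelled as embryonic and 3.5 days of age. The labels give 1 group of 2 biological replicates, each with 1 technical replicate, and name no treatment or genetic change, so no condition was compared and no test between groups was possible. All cells come from 1 line. Peak lists hold no expression values, so the line could not be checked against marker genes, and no source used here gives the depth of either replicate. The possible control experiment that the labels point to was not used here.

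Canonical WNT signalling starts when a WNT ligand binds a Frizzled (FZD) receptor together with the co-receptor LRP5 or LRP6, which stabilises beta-catenin. DKK1 blocks the pathway by binding LRP6. RNF43 and ZNRF3 are membrane ubiquitin ligases that remove FZD receptors from the cell surface, and R-spondins bound to LGR4 or LGR5 take these ligases out of action. In mouse embryonic stem cells, WNT signalling is known for its part in self-renewal.

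The DNA under the strongest peaks is shown first, because the later values refer to it. The genome sequence used was mm9 (NCBIM37), so each sequence comes from the peak with the highest enrichment in the gene's window of the authors' series-level mm9 list and spans the 200 bases around the middle of that peak. It stands for the gene's main site, but the middle of a peak need not be its summit. Fzd7, Lgr4, Lgr5 and Dkk1 had the highest mm10 signals, and Fzd2 was added after its values were seen, as the gene with a peak within 1 kb of its TSS. Capitals mark matches on either strand to the words ATGCNAAT (OCT), ACAAAG or ACAATG (SOX), ATCAAAG (TCF/LEF), AAGGTCA (ESRRB), GGGNGTGG (KLF) and TAATGG or TAATTG (NANOG).
Fzd7 (mm9 chr1:59529686-59529885, plus strand): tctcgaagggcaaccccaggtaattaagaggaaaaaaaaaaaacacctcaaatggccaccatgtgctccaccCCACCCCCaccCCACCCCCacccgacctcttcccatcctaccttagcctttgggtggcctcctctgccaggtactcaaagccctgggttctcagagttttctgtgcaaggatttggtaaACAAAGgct
Fzd2 (mm9 chr11:102464777-102464976, plus strand): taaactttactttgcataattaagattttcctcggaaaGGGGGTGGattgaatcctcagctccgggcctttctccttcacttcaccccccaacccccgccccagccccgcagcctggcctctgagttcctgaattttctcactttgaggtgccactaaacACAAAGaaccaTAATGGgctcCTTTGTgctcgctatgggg
Lgr4 (mm9 chr2:109783433-109783632, plus strand): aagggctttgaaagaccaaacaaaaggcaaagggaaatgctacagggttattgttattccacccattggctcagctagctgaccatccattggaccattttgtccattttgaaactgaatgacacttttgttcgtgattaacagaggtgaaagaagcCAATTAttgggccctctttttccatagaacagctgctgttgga
Lgr5 (mm9 chr10:114906121-114906320, plus strand): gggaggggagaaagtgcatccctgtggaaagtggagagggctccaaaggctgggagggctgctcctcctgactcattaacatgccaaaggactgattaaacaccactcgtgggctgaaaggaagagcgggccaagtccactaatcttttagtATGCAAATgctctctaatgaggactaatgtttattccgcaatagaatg
Dkk1 (mm9 chr19:30579999-30580198, plus strand): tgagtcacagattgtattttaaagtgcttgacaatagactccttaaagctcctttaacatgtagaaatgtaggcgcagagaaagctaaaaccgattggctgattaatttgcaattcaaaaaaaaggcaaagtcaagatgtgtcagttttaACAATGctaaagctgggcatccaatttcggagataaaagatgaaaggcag
The Lgr5 sequence held the OCT word ATGCAAAT, and the Dkk1 sequence held a single SOX word. The Fzd7 sequence held 2 KLF words on the minus strand and a SOX word. The Fzd2 sequence held a KLF word, a NANOG word and 2 SOX words, and the Lgr4 sequence held a NANOG word on the minus strand. Such words are common at this width. Within 100 bp to each side, OCT was in 8.12%, SOX in 53.2%, KLF in 8.05% and NANOG in 22.3% of all series-level mm9 peaks. Of the matches in capitals, only the KLF words of Fzd7 lay within 50 bp of the middle.

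Of the 10 genes, 8 had at least 1 optimal summit, and Fzd1 and Rnf43 had none. Under the same rule, 48.4% of all protein-coding genes had one. At least 2 summits were found at 6 of the 10 genes and in 22.8% of all genes, and at least 3 summits at 4 of the 10 genes and in 10.8% of all genes. The windows of long genes are wider: 5 of the 10 genes had a window over 120 kb, a size chosen after the values were seen, against 16.5% of all genes. Of these 5, 4 had a summit, against 69.5% of all genes with such windows. Among the 5 with smaller windows, 4 had a summit, against 44.3% of all genes with smaller windows. Over the windows of the 10 genes together there were 1.71 summits per 100 kb, and over those of all genes 0.744, where a summit counts once for each window that holds it. Other windows kept most of these genes. Within 10 kb of the TSS or in the gene body, 7 of the 10 had a summit, against 25.4% of all genes, and Dkk1 dropped out. Within 100 kb or in the body, 8 had one, against 67.1%. Within 50 kb of the TSS with the gene body left out, 6 had one, against 44.9%, and Lgr5 and Znrf3 dropped out. With each summit given to its nearest TSS at any distance, 8 had one, against 33.4%, with Fzd1 in the place of Lgr5. An optimal peak that was also conservative lay in the window of 8, against 32.9%. A summit of the conservative set itself lay in the window of 8, against 33.7%, and an optimal summit of at least median signal in that of 8, against 30.8%. With the top relaxed regions of replicate 2 alone, 9 had one, Fzd1 among them, against 54%, and with those of replicate 1 alone 8, against 48.5%. These shares are descriptions of 10 named genes, and the difference from other genes was not tested.

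The authors' signal (the peak caller's measure of enrichment, on a scale that no source used here gives) orders the genes by their highest summit. Dkk1 came first with a signal of 357.4, then Lgr4 with 288.1, Lgr5 with 214.4, Fzd7 with 160.9 and Fzd2 with 129.9. Lrp6 had 71.7, Znrf3 had 50.9 and Fzd5 had 42.2. The median over all 10404 genes with a summit was 52.0, so 6 of the 8 genes with a summit lay above it. Dkk1 ranked 112 among these genes, Lgr4 ranked 226 and Lgr5 ranked 551. The optimal set merges the replicates, so its signals have no replicate error. Each replicate's own list placed Dkk1, Lgr4, Lgr5, Fzd7 and Fzd2 in this same order, whereas the order of Lrp6, Znrf3 and Fzd5 in replicate 1 was turned round in replicate 2, where their best regions had signals of 10.9, 12.6 and 13.2.

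**Figure D1:**
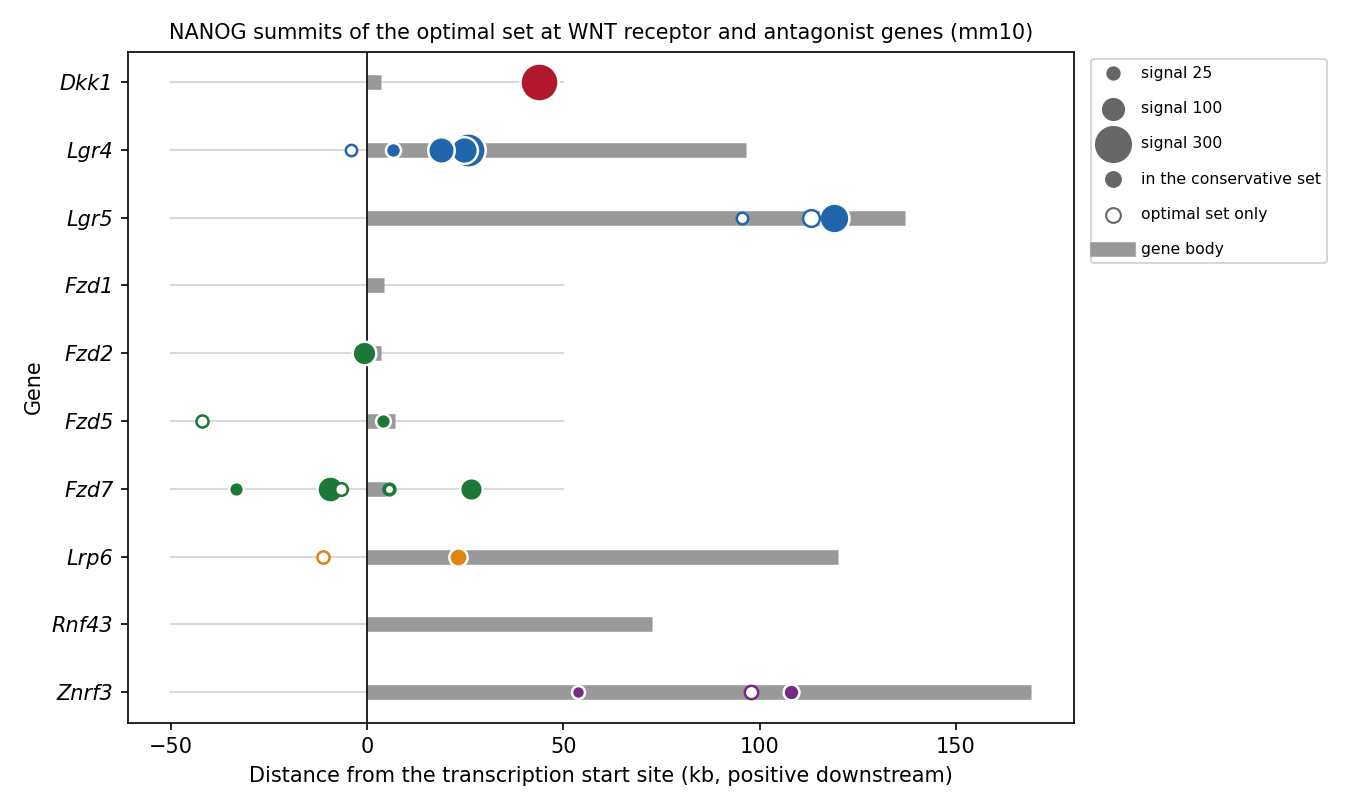
Position of each optimal NANOG summit relative to the TSS (x axis, kb, positive downstream) for the 10 genes (y axis), with gene bodies as grey bars, circle area growing with the authors' signal, filled circles for peaks in the conservative set and open circles for the others. The largest circles lie 43.8 kb downstream of the Dkk1 TSS, between 18.9 and 25.7 kb inside Lgr4 and 119 kb inside Lgr5, and Fzd1 and Rnf43 have none.

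The 4 Frizzled receptor genes differed in how many sites they had and where. Fzd7, a receptor gene with a short transcription unit of 4.81 kb, had 6 summits, the most of the 10 genes. Its strongest lay 9.39 kb upstream of the TSS (mm10 chr1:59472636-59472878), with a signal of 117.2 in replicate 1, 41.6 in replicate 2 and 160.9 in the pooled call. The next lay 26.4 kb downstream (chr1:59508404-59508626), with signals of 84.0 in replicate 1, 32.6 in replicate 2 and 117.9 pooled, and the TSS of Gm973 was nearer to it at 7.72 kb. Another, 33.5 kb upstream, had signals of 22.9 in replicate 1, 17.8 in replicate 2 and 42.0 pooled. These 3 were in the conservative set and ranked within the top 15891 regions, as many as the optimal set holds, in both replicates. The other 3 Fzd7 summits had pooled signals from 9.36 to 27.7, were outside the conservative set and had no region within 100 bp in replicate 2. A pair of these lay 200 bp apart, 5.48 and 5.68 kb downstream, in regions that overlap.

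Fzd2 had a single summit, 0.777 kb upstream of its TSS (chr11:102603561-102603756), and it was the only one of the 23 within 1 kb of the TSS of its gene. Its signal was 97.5 in replicate 1, 26.7 in replicate 2 and 129.9 pooled, which put it at rank 1418 of the optimal set. It ranked 1465 in replicate 1 and 1931 in replicate 2, so both replicates placed it high. The window of Gpatch8 also holds this summit, but that gene's TSS is 47.3 kb away.

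Fzd5 had a summit inside the gene, 4.12 kb downstream of its TSS (chr1:64733451-64733814), with signals of 29.8 in replicate 1, 13.2 in replicate 2 and 42.2 pooled. On the mm9 annotation, the matching peak of the series-level list was centred in the non-coding part of exon 2, the last exon. A weaker summit 42.2 kb upstream had a signal of 20.5 in replicate 1 and 24.0 pooled, with no region within 100 bp in replicate 2.

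Fzd1 had no optimal summit in its window, and the nearest lay at -125 kb from the TSS (negative is upstream) with a signal of 40.9. In the relaxed lists, which hold 300000 ranked regions of peaks and background for each replicate, the best region in the Fzd1 window ranked 89954 in replicate 1, with a signal of 7.53 at -32.5 kb. In replicate 2 the best ranked 13281, with a signal of 9.47 at 22.4 kb. The replicates thus named different places, and 1 of these, in replicate 2, was among as many top regions as the optimal set holds.

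Lrp6, the co-receptor that binds WNT ligands with FZD and is blocked by DKK1, had 2 summits. The stronger lay 23.1 kb inside the gene (chr6:134543714-134543855), with signals of 58.9 in replicate 1, 10.9 in replicate 2 and 71.7 pooled. It ranked 3378 in replicate 1 and 8367 in replicate 2. The matching mm9 peak was centred in intron 1 of the 22 introns of the longest coding transcript. The weaker summit, 11.3 kb upstream, had a signal of 20.5 in replicate 1 and 24.7 pooled, and replicate 2 had no region within 100 bp of it.

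Lgr4 and Lgr5, the R-spondin receptor genes, had 8 of the 23 summits, and their strongest sites were inside the genes. Lgr4 had 5 summits. Its highest (chr2:109943197-109943543, 25.7 kb downstream of the TSS) had signals of 183.8 in replicate 1, 103.7 in replicate 2 and 288.1 pooled, and ranked 320 and 122 in these replicates. A summit 1074 bp away, at 24.7 kb (chr2:109942187-109942451), had signals of 117.4 in replicate 1, 49.9 in replicate 2 and 169.8 pooled. Next came the summit at 18.9 kb (chr2:109936370-109936661), with signals of 132.7 in replicate 1, 29.8 in replicate 2 and 166.5 pooled. These 3 strong Lgr4 sites span 6.82 kb, and all 3 were high in both replicates. Their mm9 counterparts, and that of a weaker site at 6.54 kb with a pooled signal of 44.1, were centred in intron 1 of 16. The Lgr4 summit 4.11 kb upstream had a pooled signal of 19.6 and, unlike the other 22 summits, had no region within 100 bp in replicate 1, with a signal of 11.9 in replicate 2.

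Lgr5, a marker gene of WNT-dependent stem cells in the adult gut, had all of its 3 summits far inside the gene, over 50 kb from the TSS. The strongest (chr10:115469059-115469355), 119 kb downstream, had signals of 143.6 in replicate 1, 69.8 in replicate 2 and 214.4 pooled, at ranks 616 and 319 in these replicates. On mm9 it was centred in intron 8 of 17. The summit at 113 kb had signals of 48.2 in replicate 1, 5.57 in replicate 2 and 58.8 pooled. Its rank was 4595 in replicate 1 and 136543 in replicate 2, and it was not in the conservative set, so it rests mainly on replicate 1. The remaining Lgr5 summit, at 95.5 kb, had a signal of 17.6 in replicate 1 and 20.4 pooled, with no region within 100 bp in replicate 2. Zfc3h1 and A930009A15Rik had the nearest TSSs, at 77.7 to 90.4 kb, and no other gene's window held any of the 3.

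Znrf3 and Rnf43 encode the ligases that clear FZD from the membrane, and only Znrf3 had summits. Its 3 summits lay 53.8, 97.9 and 108 kb inside the gene. The one at 108 kb (chr11:5336870-5337233) had signals of 36.4 in replicate 1, 10.8 in replicate 2 and 50.9 pooled, and the one at 53.8 kb had 18.0 in replicate 1, 12.6 in replicate 2 and 29.3 pooled. Both were in the conservative set. The summit at 97.9 kb had 25.01 in replicate 1, 7.75 in replicate 2 and 32.4 pooled, and was outside it. For the summits at 97.9 and 108 kb the nearest TSS belonged to Kremen1, which encodes a co-receptor of DKK1, at 85.2 and 75.3 kb.

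Rnf43 had no optimal summit in a window of 122 kb, and the nearest lay at -103 kb with a signal of 28.0. Its best relaxed region in replicate 1 ranked 21966, with a signal of 13.4 at 70.4 kb inside the gene, and in replicate 2 the best ranked 16675, with a signal of 8.97 at -4.08 kb. Neither was within as many top regions as the optimal set holds.

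Dkk1, the secreted antagonist, had 1 summit in the window, and it was the strongest of the 23. It lay 43.8 kb downstream of the TSS and beyond the end of the gene, which is 3.62 kb long (chr19:30505421-30505871). Its signal was 226.1 in replicate 1, 129.9 in replicate 2 and 357.4 pooled, at ranks 150 in replicate 1, 59 in replicate 2 and 92 in the optimal set. Dkk1 had the nearest TSS, the next was that of Mbl2 at 273 kb, and no other gene's window held the summit. Genes were compared with Dkk1 by their numbers of optimal, conservative and replicate-supported summits, which were 1 each in 2820 genes outside the 10. Among these, the nearest in highest signal were Zfp54 with 356.4 and Arl14epl and Commd10, which share a summit, with 355.8.

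Near the limit of 50 kb, the outermost summits inside it were the Dkk1 summit at 43.8 kb and the Fzd5 summit at 42.2 kb. Just outside lay Znrf3 summits 50.8 and 54.3 kb upstream with signals of 49.4 and 40.6, a Fzd7 summit 58.8 kb upstream with 57.1 and a Dkk1 summit 65.9 kb downstream with 24.9. Of the 23 summits, 12 lay in the body of their gene, 7 upstream of it and 4 downstream of it. The median distance from the TSS was 24.7 kb. For 17 summits the gene had the nearest TSS, and 10 summits also lay in the window of another gene, so a summit's place in a window does not say which gene it acts on.

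Strong summits had more support than weak ones. The 23 summits had a median signal of 44.1, against 40.2 over the optimal set. The conservative set held 14 of the 23 peaks, 60.9%, against 56.7% of all optimal peaks, where 1 shared base counted. A region within 100 bp was found in the relaxed lists of both replicates for 16 of the 23 summits, 69.6%, against 73.1% of all optimal summits. For 14 of the 23, both regions were within as many top regions as the optimal set holds, against 46.2% of all. The conservative and optimal sets and these lists come from the same 2 replicates, so support is partly built in. The 8 summits with a pooled signal of at least 100, a value chosen after the data were seen, belonged to Dkk1, Lgr4, Lgr5, Fzd7 and Fzd2. All 8 were conservative and in the top of both replicates, as were 99.7% and 99.3% of all optimal peaks of that strength, which make up 13.9% of the set. Of the 9 summits below the median signal of the optimal set, 40.2, the conservative set held 1 and both replicates supported 2, against 28.0% and 54.1% of all optimal summits below that median.

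The replicates were not equal. Replicate 1 had a region within 100 bp of 22 of the 23 summits and replicate 2 of 17, against 96.9% and 75.0% of all optimal summits. Among the 16 summits found in both, 9 had the better rank in replicate 2, the strongest summits of Dkk1, Lgr4, Lgr5 and Fzd7 among them. Over all optimal summits found in both, 40% had the better rank in replicate 2.

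**Figure D2:**
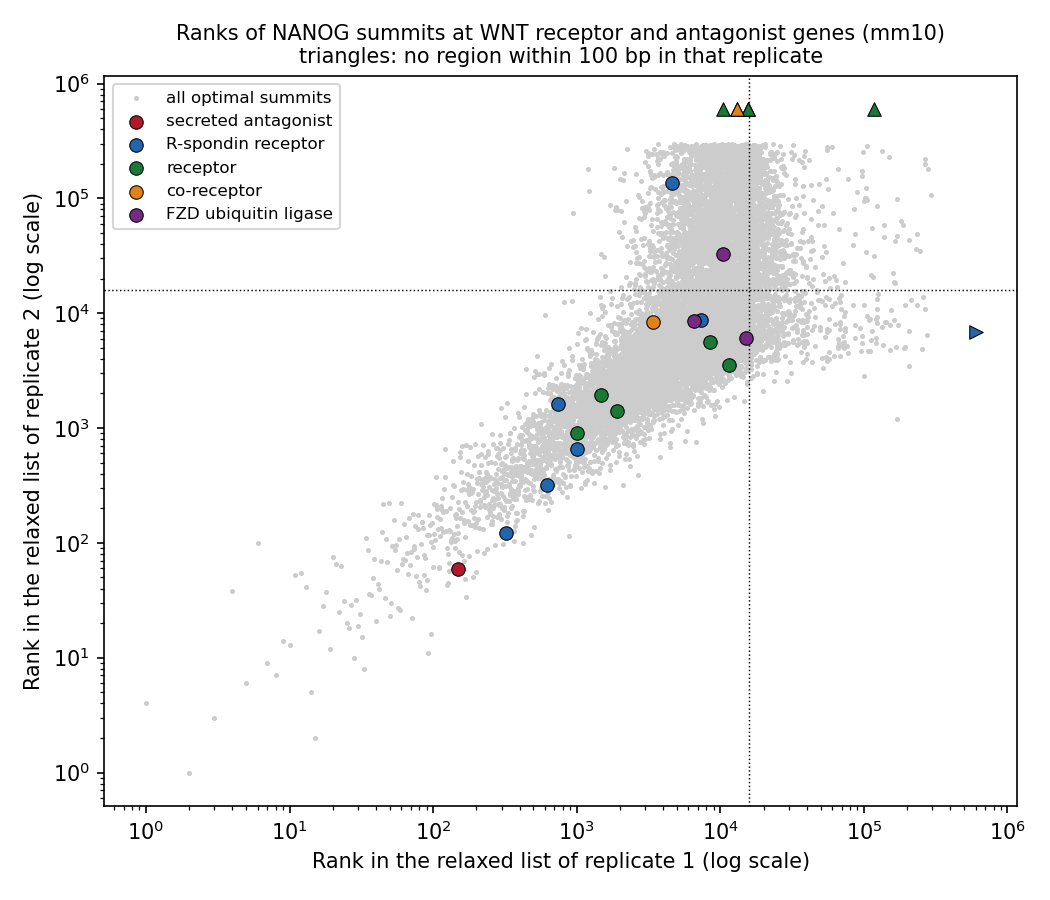
Rank of each summit in the relaxed list of replicate 1 (x axis, log scale) and replicate 2 (y axis, log scale), coloured by role, with all optimal summits in grey, triangles for summits with no region within 100 bp in that replicate and dotted lines at rank 15891. Dkk1 sits lowest at ranks 150 and 59, and 7 summits have no partner in a replicate, 6 of them in replicate 2 with some symbols overlapping.

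The other extracellular and membrane genes of the pathway were counted by the same rule. They came from a list of 53 genes set by role and not by their peaks, though with earlier results of these data known. Of these, 30 had a summit, 56.6%, against 48.4% of all protein-coding genes. The median of their highest signals was 51.0, and it was 145.4 for the 8 genes described above that had a summit and 52.0 for all genes with one. These medians were not adjusted for the width of the windows. Among ligands, 9 of 19 had a summit, and Wnt3 and Wnt9b among them share their highest, with a signal of 36.9. Wnt8a had a signal of 175.9 at 13.1 kb downstream and Wnt16 had 131.6 inside the gene at 5.94 kb. Wnt10a had 114.4 at 33.1 kb downstream, nearer to the TSS of Cdk5r2. Among the other receptors, 7 of 12 had one, the highest at the WNT5A receptor genes Ror2 with 98.0 at 51.2 kb and Ror1 with 84.0 at 1.83 kb, both inside the gene, and at Fzd8 with 72.6. Among the other antagonists, 12 of 16 had one. Notum, an enzyme that removes the lipid of WNT proteins, had 146.4 at 2.71 kb upstream, and Sfrp2 and Sfrp1, soluble proteins that bind WNT, had 97.1 at 14.2 kb and 94.4 at 28.4 kb upstream.

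Of the 4 R-spondin genes, which encode the ligands of LGR4 and LGR5, only Rspo2 had a summit, with a signal of 178.1 at 43.4 kb upstream. Porcn, the enzyme that adds the lipid to WNT proteins, had 5 summits, the highest with a signal of 187.2 at 0.759 kb upstream, and Wls, the WNT carrier, had none. The named summits of Wnt8a, Wnt16, Wnt10a, Ror2, Ror1, Fzd8, Notum, Sfrp2, Sfrp1, Rspo2 and Porcn were all conservative and in the top of both replicates. Dkk1, Lgr4 and Lgr5 had higher signals than any of the 53, while Wnt1, Wnt3a, Frzb, Dkk2 and Kremen1 were among the 23 without a summit.

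**Figure D3:**
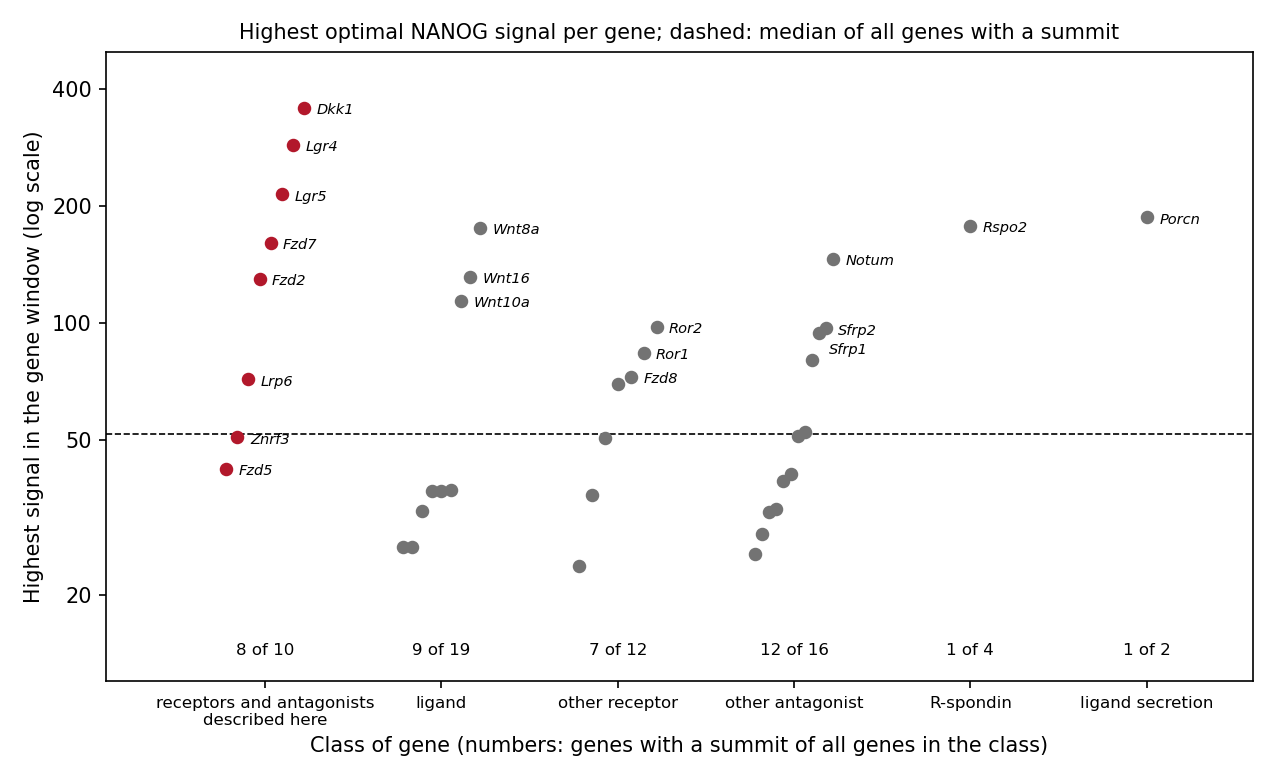
Highest optimal NANOG signal in the gene window (y axis, log scale) for each gene with a summit, by class (x axis), with the receptors and antagonists described here in red, the median of all genes with a summit as a dashed line and the number of genes with a summit of all genes below each class. Dkk1, Lgr4 and Lgr5 lie above Porcn, the highest of the other genes at 187.2.

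The authors' mm9 lists, made for each replicate and for the series as a separate set of calls on the same libraries, put peaks at the same genes. Of the 10 genes, 8 had a peak centre in the window in the series-level list, against 45.2% of protein-coding genes on mm9. The list of replicate 1, with 22082 peaks, reached 8 of the 10, against 61.6% of all genes, and that of replicate 2, with 6618 peaks, reached 5, against 28.2%. Fzd1 and Rnf43 had no peak in any of these lists. The deposited enrichment ratio of the highest peak was 82.9 for Dkk1 in replicate 1, 42.0 in replicate 2 and 40.8 at series level. For Lgr4 it was 61.5 in replicate 1, 36.8 in replicate 2 and 31.6 at series level, and for Lgr5 it was 47.8, 23.9 and 24.3 in the same lists. Fzd7 had 39.4, 16.7 and 20.1, and Fzd2 had 31.6, 14.8 and 16.3. Fzd5, Lrp6 and Znrf3 had peaks in replicate 1, with 12.4, 20.2 and 14.6, and none in replicate 2. The order of the 8 genes by enrichment at series level and in replicate 1 was that of their mm10 signals.

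A Dkk1 peak at -4.3 kb from its TSS was in the series-level mm9 list, with an enrichment of 4.87 and a deposited q-value of 0.02, while the optimal mm10 set had no summit within 10 kb of the Dkk1 TSS. The list of replicate 1 held it with a q-value of 0.1019 and that of replicate 2 did not hold it. In the windows of the 10 genes, 11 of the 25 replicate 1 peaks, 1 of the 9 replicate 2 peaks and 0 of the 17 series-level peaks had a q-value above 0.05. The share over all peaks of each list was not counted, so these counts are not read as particular to the 10 genes. In the series-level list, a cut at 0.05 left 10054 of all genes with a peak, the same number as without it. No test was run on these lists, whose q-values are the authors'.

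**Figure D4:**
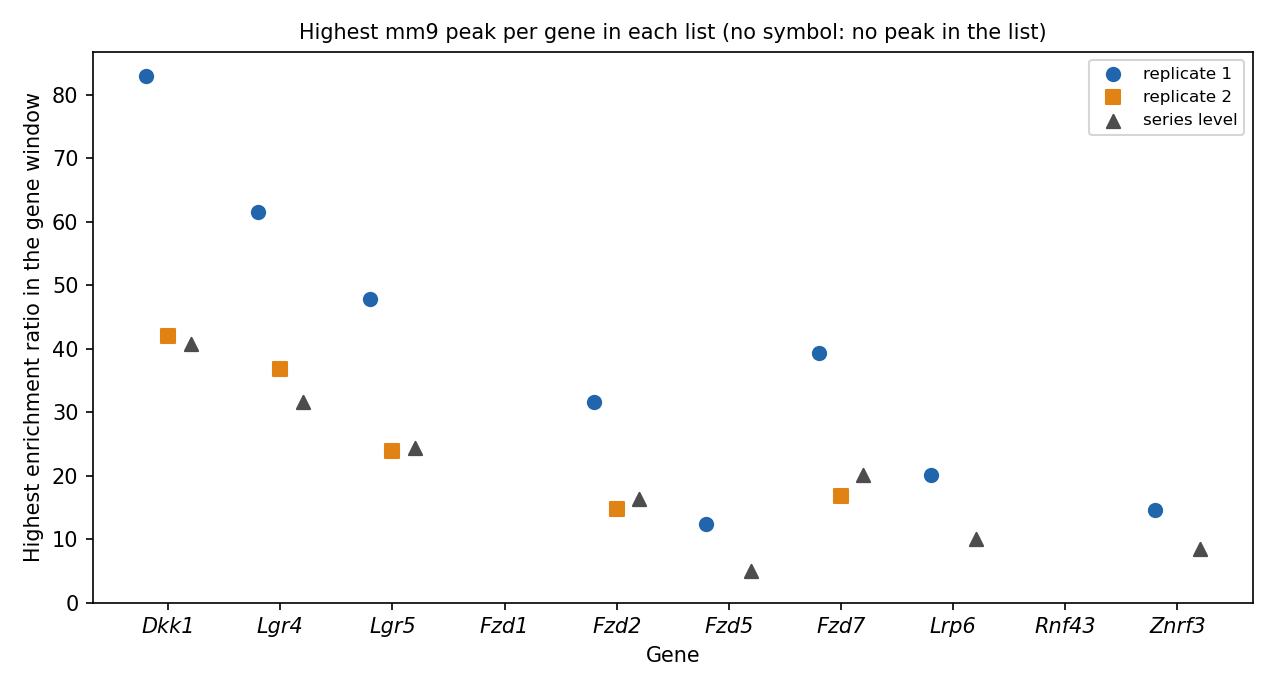
Highest deposited mm9 enrichment ratio in each gene's window (y axis) for the 10 genes (x axis) in the list of replicate 1 (circles), replicate 2 (squares) and the series (triangles), with no symbol where the list has no peak. Dkk1, Lgr4, Lgr5, Fzd7 and Fzd2 have a peak in all 3 lists, and Fzd5, Lrp6 and Znrf3 have none in replicate 2.

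The same words were also counted over the 17 series-level mm9 peaks in the windows, within 50 bp of the middle to each side. All 13341 peaks of that list were counted beside them. Of the matches printed in capitals above, only the KLF words of Fzd7 lie within this narrower width. At least 1 of the words was in 8 of the 17, 47.1%, and in 54.6% of all peaks. In the list of replicate 1 it was 17 of 25 peaks, 68.0%, beside 50.3% of all. In that of replicate 2 it was 7 of 9, 77.8%, beside 57.2% of all. The side on which the peaks of these genes fall thus depends on the list. A q-value above 0.05 was held by 11 of the 25 replicate 1 peaks, 1 of the 9 replicate 2 peaks and 0 of the 17. The TCF/LEF word ATCAAAG, bound by the nuclear effectors of WNT signalling, was in 2 of the 17, the Lgr5 peak at 113 kb and the Znrf3 peak at 108 kb, and in 2.81% of all peaks. The list of replicate 2 has no peak at these places, and 0 of its 9 peaks in the windows held the word, beside 3.07% of all its peaks. In the list of replicate 1 the TCF/LEF word was in 2 of 25, 8.0%, beside 2.83% of all. A SOX word was in 3 of the 17, at Lrp6, Lgr4 and Lgr5, and in 35.3% of all peaks. In the list of replicate 1 it was in 4 of 25 and in 31.0% of all, but in that of replicate 2 in 5 of 9, 55.6%, and in 37.8% of all, the other way round. The OCT word was in 1 of the 17, the Lgr4 peak at 6.61 kb, and in 4.62% of all peaks. The same word was in 2 of the 25 replicate 1 peaks, beside 4.54% of all, and in 1 of the 9 replicate 2 peaks, beside 5.52% of all. ESRRB was in 1, KLF in 2 and NANOG in 2 of the 17, and in 6.38%, 3.82% and 13.4% of all peaks. ESRRB was in 0 of the 25 replicate 1 peaks and 0 of the 9 replicate 2 peaks, beside 6.22% and 5.94% of all peaks of these lists. KLF was in 4 of the 25, 16.0%, beside 4.17% of all, and in 0 of the 9, beside 3.28% of all. NANOG was in 7 of the 25, 28.0%, beside 12.2% of all replicate 1 peaks, and in 2 of the 9, 22.2%, beside 14.4% of all replicate 2 peaks, both above the share of all peaks, unlike in the series-level list. Within 100 bp to each side, SOX words were in 10 of the 17 peaks and in 53.2% of all, and at least 1 of the words was in each of the 17 and in 76.4% of all. The SOX and TCF/LEF words share the letters CAAAG, but a single CAAAG cannot belong to both. With 17 peaks, a share moves by 5.88 percentage points for each peak. The shares move with the list and the width searched, and a match is a description of the sequence only.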

How the data were processed

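NANOG ChIP-seq peak lists of 2 biological replicates, 1 group, were used. Per the file names, the authors made relaxed mm10 lists as input to a reproducibility procedure (IDR), an optimal and a conservative IDR set, and mm9 lists. Relaxed lists exist for each replicate and for both together, and the names do not say which gave the optimal and conservative sets. The deposited mm10 columns hold a signal, a score, a -log10 q-value and a summit offset. The deposited mm9 columns hold an enrichment ratio, a -log10 p-value and an untransformed q-value. Aligner, peak caller, IDR threshold and depth are not given in the sources used here.

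Python 3.11.15, NumPy 2.4.6, pandas 2.3.3 and matplotlib 3.10.9 were used. mm10 gene positions came from RefSeq GRCm38.p6, with 21883 protein-coding genes and the 5′ end of the gene as TSS. Strand came from its promoter table for 17491 and from the mm9 annotation for 3991 of the 21482 genes used. Introns, motifs and sequences were read on mm9 (NCBIM37), and mm9 peaks were set beside mm10 summits only by their distance from the TSS. Support meant a relaxed region's summit within 100 bp of an optimal summit, and top meant a rank within 15891. Of the optimal regions, 14 are listed more than once and were kept. Window counts and motif search were tested on simulated data. Genes and lists were chosen with earlier results of these data known. Named genes were the 10 genes, up to 3 per class with the highest signal, and the genes nearest in pattern to Dkk1. Alternatives were other windows, sets, replicates and distances.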

Additional observations from a re-analysis of the deposited data

How the results depend on the processing

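Of the 10 genes, between 6 (TSS window only) and 9 had a summit under all mm10 settings tried, and Rnf43 had none under any of them. With the TSS window only, Lgr5 and Znrf3 lost all of their summits, and within 10 kb Dkk1 lost its own. Without replicate 1, Fzd1 gained 1 summit. Leaving out replicate 1 gave 9 genes and 19 such regions on mm10, and 35 of the 53 other genes, against 54.0% of all genes. Leaving out replicate 2 gave 8 genes and 25 such regions, and 31 of the 53, against 48.5% of all genes. On mm9 each replicate's own peak list was used instead. This gave 5 genes without replicate 1, whose list is the longer, against 28.2% of all genes. There it was 8 genes without replicate 2, against 61.6% of all. Across the lists, within 50 bp to each side, peaks with any motif word numbered 7 to 17. Without replicate 1 it was 7 of 9 peaks (77.8%, and 57.2% of all peaks of that list). Without replicate 2 it was 17 of 25 (68.0%, and 50.3% of all), against 8 of 17 (47.1%, and 54.6% of all) at series level. Within 25 bp the series level had 6 of 17, and 31.8% of all. The 23 summits became 15 with the conservative set and 14 at or above the median signal. The 30 of 53 other genes became 17 within 10 kb and 17 at or above the median signal, while the share of all genes went down as well, to 25.4% and 30.8%, against 48.4%. The 8 of 17 peaks with any motif word became 17 within 100 bp, with 76.4% of all peaks. The other settings moved these counts by at most 1.5 times. Counts of single motif words moved by more than that in 14 of 24 cases. The cause was not tested. Listing each duplicated region once, an alternative chosen after seeing the data, changed none of the 3 counts it was run on. No paired analysis was possible because the labels give a single group. Unknown read depth limits what the absence of an optimal summit shows at Fzd1 and Rnf43.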
